A study of Pimephales promelas with 20 samples.

Results

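The probes described here are those whose typical signal in female liver stood at about the same distance from the controls at all 3 tested concentrations of phenanthrene. The rule that chose them required this flat pattern of group medians over dose, so the pattern is a property of the choice. There were 100 such probes among 10867 tested probes and 15208 probes for fish sequences on the array. They were chosen from group medians of the authors' deposited log2 values. A probe was tested if the scanner software marked it well above background on 4 or more arrays of any group. Its median at each dose had to differ from the control median in 1 direction, by at least 0.5 log2 units, with the 3 differences within 0.4 of each other. Of the tested probes 5888 had 3 differences of 1 sign, 1301 of them reached 0.5 at each dose, and 419 met the whole rule, which is 3.86% of those tested. The 100 with the largest mean difference were kept. They comprised 45 probes that were higher and 55 that were lower in exposed liver, and the 419 comprised 197 and 222. With group means in place of medians, 44 of the 100 met the rule.

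RNA was measured on 20 one-colour Agilent arrays of liver from female fathead minnows (Pimephales promelas), a small freshwater fish used in aquatic toxicology. All fish belonged to a 48 h exposure. The 5 control arrays (0 ng/L) carried no agent, and 5 arrays each came from fish held in 29, 287 and 1006 ng/L phenanthrene. The sources used here give neither strain nor age. Nothing in the labels says whether each array holds a different fish, so the spread between arrays may be technical. The 287 ng/L array with replicate number 27 was placed by its dose label, although its number follows on from 22 to 26 at 29 ng/L. The authors' title for its column also names the middle dose. The array names its probes by an identifier and by the number of a contig or sequence. None of these names was found in the reference gene table, so 0 members have a gene name, the tissue label could not be checked against liver markers, and members are given by identifier or by their rank in size.

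Phenanthrene is a polycyclic aromatic hydrocarbon, one of the fused-ring compounds of crude oil and combustion residues. In fish liver, compounds of this class are taken up quickly and oxidised, and the larger ones bind the aryl hydrocarbon receptor, a transcription factor whose best known target is the cytochrome P450 gene cyp1a. Phenanthrene itself is regarded as a weak ligand of that receptor. The liver of a female fish also makes yolk precursor proteins under oestrogen control, and its RNA therefore varies with the reproductive state of the animal. Because bulk tissue was used, fewer cells of a type and less RNA per cell cannot be told apart.

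The member with the largest difference was UF_Ppr_AF_101693, which was lower at every dose. Its deposited log2 signal on control arrays was 4.78, 6.20, 5.55, 5.02 and 8.22 (replicates 3 to 7). At 29 ng/L it was 2.07, 6.40, 2.20, 4.28 and 2.98 (replicates 22 to 26). At 287 ng/L it was 2.67, 2.55, 4.72, 2.56 and 3.83 (replicates 27, 32, 35, 36 and 38). Arrays at 1006 ng/L gave 3.98, 2.49, 2.78, 2.84 and 0.94 (replicates 41, 42, 44, 45 and 46). All exposed arrays lay below the lowest control except 29 ng/L replicate 23, which lay above 4 of the 5 controls. The medians differed from the control median by -2.58, -2.89 and -2.77 in order of dose. The probe was well above background on all 5 controls but only on 3, 3 and 2 of the 5 arrays at the 3 doses, so the size of the difference is not exact.

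The largest difference upward belonged to UF_Ppr_AF_112102. Its log2 signal on control arrays was 0.54, 2.18, 3.57, 6.23 and 2.52, of which only the 6.23 of replicate 6 was well above background. The 29 ng/L arrays gave 5.01, 3.23, 2.38, 5.08 and 8.48. The 287 ng/L arrays gave 5.34, 3.46, 7.08, 5.70 and 1.80, and those at 1006 ng/L 4.75, 5.20, 8.41, 9.46 and 2.92. Every dose group overlapped the controls. The group medians lay 2.48, 2.81 and 2.68 above the control median, while the means were 3.01 ± 2.10 (SD, n = 5) in controls and 4.84 ± 2.35, 4.68 ± 2.06 and 6.15 ± 2.71 at the 3 doses. Control replicate 6 was above the median of every dose group. With 4 of the 5 controls not well above background, the sizes of these differences and the rank of the probe are not exact.

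Among members well above background on all 20 arrays, the largest difference upward was that of UF_Ppr_AF_116169. Its log2 signal was 9.76, 7.34, 7.58, 10.35 and 8.55 on control arrays and 13.01, 10.67, 10.37, 10.81 and 10.48 at 29 ng/L. All 5 arrays at 29 ng/L thus lay above all controls, the lowest at 10.37 against the highest control at 10.35. Values of 10.76, 9.91, 10.95, 10.81 and 6.17 belonged to 287 ng/L, and 10.50, 11.58, 5.74, 11.35 and 10.40 to 1006 ng/L. Replicate 38 at 287 ng/L and replicate 44 at 1006 ng/L lay below every control, while 3 and 4 of the other arrays of those doses lay above every control. The medians were 2.13, 2.22 and 1.95 above the control median, that is 4.37-, 4.65- and 3.87-fold. The corresponding means were 11.07 ± 1.098 (SD, n = 5), 9.72 ± 2.03 and 9.91 ± 2.39, against 8.72 ± 1.32 in controls.

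The largest difference downward among members well above background on all 20 arrays was that of UF_Ppr_AF_116967. Its log2 signal was 9.65, 9.83, 8.46, 10.41 and 8.03 on control arrays, with a mean of 9.28 ± 0.99 (SD, n = 5). The lowest concentration gave 7.85, 8.83, 9.75, 8.05 and 6.74. The middle one gave 9.41, 6.71, 7.72, 6.24 and 9.62, and the highest 7.38, 8.11, 9.26, 7.96 and 8.62. The groups overlapped at every dose, with control replicates 5 and 7 within the range of each dose group. Replicate 24 at 29 ng/L (9.75) also lay above control replicate 3 (9.65). The medians differed from that of the controls by -1.60, -1.93 and -1.54, that is 3.03-, 3.81- and 2.91-fold lower. The means at the 3 doses were 8.25 ± 1.13, 7.94 ± 1.53 and 8.27 ± 0.71.

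**Figure D1:**
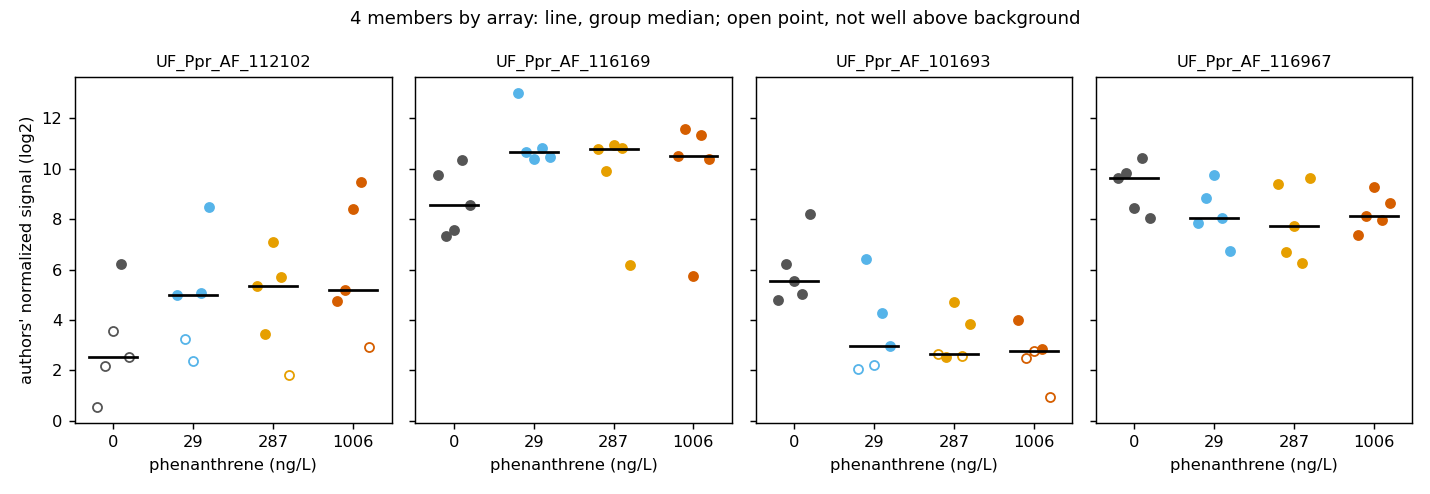
Deposited log2 signal (vertical axis) of 4 members on each array, by phenanthrene concentration in ng/L (horizontal axis); points are arrays, lines are group medians and open points are not well above background. The medians at 29, 287 and 1006 ng/L sit close together in each panel, as the rule required. Single arrays cross between the groups, such as replicate 38 at 287 ng/L (6.17) and replicate 44 at 1006 ng/L (5.74) for UF_Ppr_AF_116169.

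Over all 100 members the difference from the control median, taken in each probe's own direction, had a median of 1.18 log2 units at the lowest, 1.19 at the middle and 1.17 at the highest concentration, beside median sizes of 0.33, 0.35 and 0.46 for all tested probes. With its sign kept as measured, the median difference was 1.20, 1.22 and 1.29 among higher members and -1.18, -1.16 and -1.13 among lower members. In size, single differences ran from 0.78 to 2.89. These sizes and their closeness were set by the rule and carry no test. The dose furthest from the controls was 29 ng/L for 31 members, 287 ng/L for 37 and 1006 ng/L for 32. The nearest dose was 29 ng/L for 31 members, 287 ng/L for 28 and 1006 ng/L for 41. The rule kept the 3 differences close, so these counts give no order of the doses. The 3 differences of a member lay between 0.03 and 0.40 apart, with a median of 0.30. At the limit of the choice, the last 3 members had mean differences of -0.9925, 0.9920 and -0.9901, and the first 3 probes left out had 0.9885, -0.9826 and 0.9811.

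Arrays of 1 group lay further apart for the members than for the typical tested probe. In the order controls, 29, 287 and 1006 ng/L, their median SD within a group was 0.98, 1.08, 0.80 and 0.89 log2 units, beside 0.58, 0.78, 0.56 and 0.69 for all tested probes. Among the 40 members that were well above background on all 20 arrays the 4 values were 0.81, 1.06, 0.67 and 0.74, beside 0.45, 0.67, 0.48 and 0.57 for the 6638 tested probes of that kind. At the median, the mean difference of a member was 1.30 times its within-group SD, beside 0.46 times for all tested probes. Among members the ratio ran from 0.44 to 2.79. The difference exceeded 1 SD in 68 members and 2 SD in 8. The rule used these differences, and a choice by size can favour probes with a wide spread. No trait of the members is therefore read from these values.

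The member with the highest ratio of difference to SD, ranked 15 by size and picked after its values were seen, was higher in exposed liver. Its log2 signal in controls was 2.69 to 4.51 with a median of 3.04. The 3 exposed groups, in order of dose, spanned 3.23 to 5.05, 4.45 to 4.99 and 4.24 to 4.90, with medians of 4.59, 4.58 and 4.51. Even here the highest control lay within the range of each dose group, and the probe was well above background on only 2 of the 5 controls. The member with the lowest ratio, ranked 92, had medians of 7.58, 6.63, 6.55 and 6.52. The highest array of that probe stood at 13.03 in the controls and at 12.67 at 287 ng/L. Its means were 8.44 ± 2.59 (SD, n = 5) in controls and 6.53 ± 1.03, 8.86 ± 3.30 and 6.72 ± 1.44 in order of dose. By means it was thus not lower at 287 ng/L.

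Few members separated the exposed arrays from the controls. The arrays of a dose group lay wholly beyond the 5 controls for 2, 6 and 7 members in order of dose. Among all tested probes this was so for 0.773%, 1.61% and 3.54%. Counted by member, 7 were apart at 1 dose, 4 at a pair of doses and 0 at all 3. Not 1 of the 100 members placed all 15 exposed arrays beyond the controls, as 9 of all tested probes did (0.0828%). The rule used these contrasts, so nothing further is read from these shares.

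The 4 members apart from the controls at a pair of doses were UF_Ppr_AF_101693 and those ranked 24, 34 and 86, named here after their values were seen. The member ranked 86 was higher in exposed liver, with log2 signals of 8.83 to 9.88 in controls (median 9.60). Its exposed groups spanned 9.82 to 10.87, 10.30 to 11.14 and 10.12 to 11.23 in order of dose, with medians of 10.46, 10.55 and 10.84. It was well above background on every array, and at 29 ng/L 1 array reached into the control range. The member ranked 24 was lower, at 8.18 to 8.96 in controls (median 8.37) and 5.79 to 8.99, 6.51 to 7.40 and 5.37 to 7.54 in the exposed groups (medians 7.15, 7.08 and 6.80). The member ranked 34 was lower too, at 10.09 to 10.85 in controls (median 10.79) and 7.31 to 9.96, 9.22 to 10.32 and 8.74 to 9.97 in the exposed groups (medians 9.49, 9.70 and 9.39). Both were well above background on all arrays.

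In the linear model fitted with limma to all tested probes, which was run on scanner intensities normalized by cyclic loess, no member was called at any dose at an adjusted p under 0.05. Of all tested probes limma called 0, 0 and 22 in order of dose, or 0%, 0% and 0.202%. The 22 moved with single arrays and with the way slide was fitted. Leaving out a control array gave 3, 5, 23, 34 and 1 for replicates 3 to 7, and leaving out replicates 41, 44 and 46 of the highest dose gave 3, 6 and 11. Leaving out replicates 22 and 26 of the lowest dose gave 50 and 69. Slide as a fixed block left 1, while slide as a random block gave 22 and scan session as a fixed block 25. The lowest adjusted p that limma gave a member was 0.825, 0.651 and 0.0626. At an unadjusted p under 0.05 there were 22, 25 and 33 members, where 5.63%, 5.45% and 13% of all tested probes were below that value. An ordinary linear model without moderated variances called 0, 0 and 1 members, beside 0%, 0% and 0.285% of all tested probes. These contrasts chose the members, so the counts are a description and not a test of them.

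The rule used the control medians, so a dimmer control level among higher members belongs to the choice. A higher member could pass the brightness filter through exposed arrays alone, and a lower member through control arrays alone. The shares of members well above background are shaped by that filter in both directions. The 45 higher members had a median control signal of 4.46 log2 units and the 55 lower members one of 6.56, beside 7.0 for all tested probes. In exposed groups the medians were 5.64 and 5.31. The quartiles of all 100 were 4.53 and 7.58, those of all tested probes 5.06 and 9.08. In controls, 15 of the 45 higher and 35 of the 55 lower members were well above background on all 5 arrays (33.3% and 63.6%), beside 70.1% of tested probes. On all 20 arrays this was so for 15 higher and 25 lower members, 40% of the members and 61.1% of tested probes. One higher member was well above background on 0 control arrays. The brightest member, ranked 99 and higher, had a median log2 signal of 13.33 in controls and of 14.24, 14.19 and 14.54 in the exposed groups, with control arrays from 13.25 to 14.36 and exposed arrays from 12.97 to 15.54.

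Array brightness differed between the groups. The 75th percentile of processed intensity had a median of 263 in controls (151 to 324) and of 329 (220 to 511), 374 (244 to 534) and 259 (246 to 684) in the exposed groups. The number of probes well above background had medians of 10457, 10533, 11412 and 10776. The part of brightness in the members' differences was not tested.

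Control replicate 6 lay nearer to the exposed arrays than the other controls did. This array was also the only control of scan session 2. On each array the shift of a member from its control median was taken in the member's own direction, and the median over members was computed. It was -0.11, 0, 0.06, 0.91 and -0.06 log2 units for control replicates 3 to 7. The 29 ng/L arrays had 1.26, 1.11, 0.79, 0.99 and 1.73, the 287 ng/L arrays 1.08, 1.19, 1.49, 1.22 and 0.97, and the 1006 ng/L arrays 1.25, 0.90, 1.37, 1.68 and 1.05. Control replicate 6 thus exceeded 29 ng/L replicate 24 and 1006 ng/L replicate 42, and the other 4 controls lay below all exposed arrays. The control mean was 0.16 ± 0.42 (SD, n = 5), and the exposed groups had means of 1.18 ± 0.35, 1.19 ± 0.19 and 1.25 ± 0.30. Without control replicate 6 the members' median differences were 1.24, 1.25 and 1.24 in order of dose. As the members were chosen on these arrays, the distance of the controls from the exposed groups is a property of the choice.

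**Figure D2:**
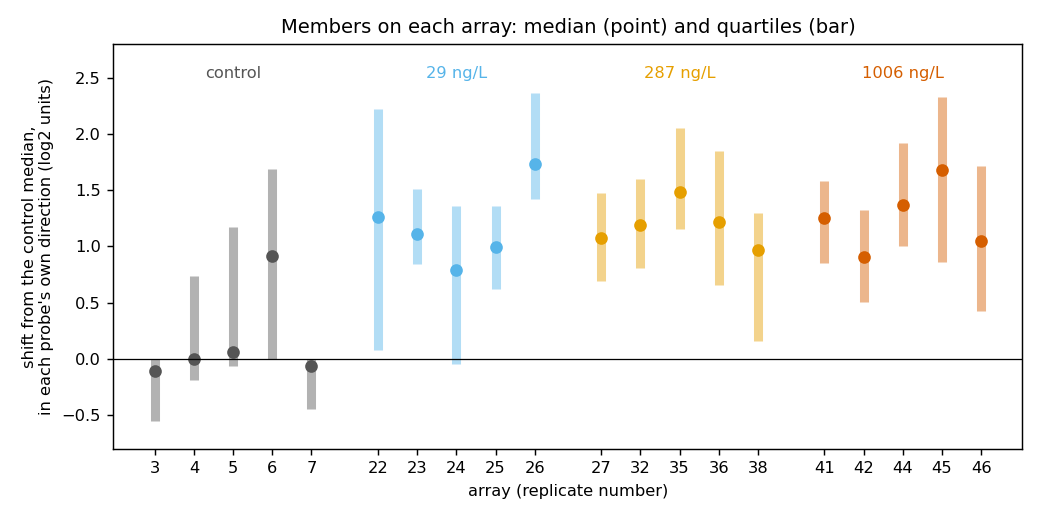
Shift of the 100 members from their control medians (vertical axis, log2 units, each probe in its own direction) on each of the 20 arrays (horizontal axis, by replicate number); points are medians over members and bars run from the lower to the upper quartile. Control replicate 6 sits at 0.91 beside the exposed arrays at 0.79 to 1.73, and the other controls sit between -0.11 and 0.06.

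Counted probe by probe, control replicate 6 lay on the exposed side of the midpoint between the control median and the mean of the 3 dose medians for 59 of the 100 members, 27 higher and 32 lower. Control replicates 3, 4, 5 and 7 did so for 15, 28, 36 and 13 members. Among exposed arrays the count ran from 57 (29 ng/L replicate 24) to 93 (29 ng/L replicate 26) with 62 to 90 for the middle and 70 to 87 for the highest concentration. For 58 members a pair of the 5 controls lay past the midpoint, replicate 6 being one of them in 42. For 35 members 1 control did, which was replicate 6 in 17, and for 7 members none did. For 3 members no exposed array fell short of the midpoint, and none of these 3 was among the 7. The midpoint comes from the medians that chose the members. No more than a pair of the 5 arrays of a group could therefore lie on the other side of it from their median. These counts follow in large part from the choice and are a description.

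**Figure D3:**
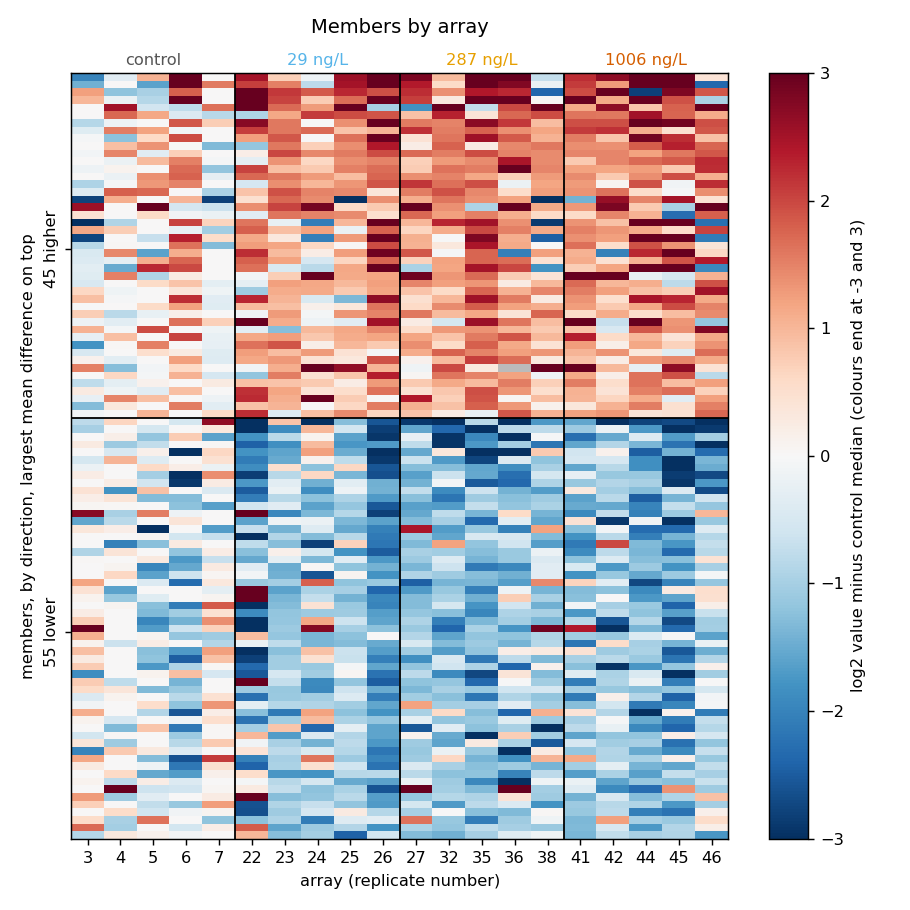
Log2 value minus control median (colour) for the 45 higher and 55 lower members (rows, largest mean difference on top) on the 20 arrays (columns, by replicate number); grey marks the 1 missing value. Control replicate 6 carries the colours of the exposed arrays in many rows, and single cells of the opposite colour mark exposed arrays that went against their group.

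Arrays lay on 5 slides, of which only slides 3 and 4 held every group, with 2 arrays of each. On slide 3 alone the members' median differences in their own direction were 1.16, 1.09 and 1.61 log2 units in order of dose, and 77 members kept their direction at all 3 doses. On slide 4 alone the medians were 1.06, 0.95 and 0.81, with 87 members. Scan session 1, made up of these slides, gave 1.32, 1.19 and 1.27. It held 4 arrays of each group, which also chose the members. The directions kept in that session, and on slide 3 or slide 4 alone, therefore follow in large part from the choice. Session 2 held 1 array of each group (replicates 6, 25, 36 and 46, the first a control), and its median differences were -0.04, 0.17 and -0.10 over 99 members. There, 49, 58 and 47 members had the direction of the whole set at the 3 doses, and 35 had it at all 3. All 3 of these differences are taken from control replicate 6, whose median shift from the control medians was 0.91. The exposed arrays of session 2 had shifts of 0.99, 1.22 and 1.05. As the only control there was replicate 6, a trait of that array and a difference between sessions cannot be told apart. A single array per group has no replicate check, so the difference between sessions was not tested.

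All 3 differences of a probe share the same 5 controls. Slides 3 and 4 share no array, so the rule was also applied to each slide alone and the chosen probes were read on the other, a step added after seeing the data. On slide 3 the rule was met by 284 probes, whose top 100 had median differences of 1.34, 1.33 and 1.38. On slide 4 the same 100 probes gave 0.51, 0.26 and 0.31, with 52 in the same direction at all 3 doses, beside 0.31, 0.19 and 0.27 and 45.5% for all tested probes turned by their slide 3 direction. On slide 4 the rule was met by 860 probes, whose top 100 gave 0.93, 0.76 and 4.66 on slide 3, no longer alike over dose, with 65 in the same direction, beside 0.07, 0.11 and 0.54 and 32.7% for all tested probes. Of the top 100 chosen on slide 3, 7 were among the 100 members, and of the top 100 chosen on slide 4, 0 were. These readings therefore concern almost wholly other probes and are no check of the members. The probes that met the rule on both slides numbered 16. They were 5.63% of the 284, where 7.91% of all tested probes met the rule on slide 4 in either direction. They were 1.86% of the 860, where 2.61% of all tested probes met it on slide 3, again in either direction. Nothing further is read from these shares.

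The same rule can be met around any group. With 29 ng/L arrays in the place of the controls, and the controls treated as a dose, 269 probes met the same rule, and with 287 ng/L arrays 184 did. With 1006 ng/L arrays in that place the count was 588, above that for the controls. As shares of tested probes these are 3.86% for the controls, 2.48%, 1.69% and 5.41%.

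Within groups, the members' variation was about as shared as that of the array as a whole. After the mean of each group was removed, the correlation between a pair of members over the 20 arrays had a median size of 0.240, and that between any pair of tested probes 0.243. When each member was turned in its own direction the median correlation was 0.12, and 63.1% of the 4950 pairs were above 0. The median was 0.11 among higher members, 0.12 among lower members and -0.12 between the higher and the lower. No signed values were computed for all tested probes, and the directions come from these same arrays. Nothing is read from the signed values. The first component of the members' variation within groups held 31.6% of their variance, beside 30.2% for all tested probes. Control replicate 6 and 29 ng/L replicate 26 scored highest on it, at 0.38 and 0.35, and 29 ng/L replicate 24 and 287 ng/L replicate 38 lowest, at -0.40 and -0.34. All of these correlations share the arrays and their brightness and are descriptions.

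Few other probes bore on the same sequences. The 100 members came from 100 different sequences, 79 of them contigs and 21 single sequences known by a database number. For 11 members the array held another probe whose name gives the same sequence, and 5 of these partners were tested probes. In the direction of the member, the partners' median differences were -0.18, -0.08 and -0.23 log2 units in order of dose, and 0 of the 5 shared the member's direction at all 3 doses. One probe of each pair carries the name ending ms, which the sources used here do not explain. Pairs of this kind were loosely related over the array as a whole, with a median correlation of 0.25 within groups over 200 tested pairs. Such partners may not read the same transcript, and that was not tested.

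Some members also had probes for another contig of the same numbered cluster. There were 27 tested partners for 17 members, with median differences of 0.06, 0.18 and 0.13 in the member's direction. Of these, 11 had the member's direction at all 3 doses, 2 reached 0.5 at each, and 1 met the rule itself. The 2 that reached 0.5, including the 1 that met the rule, were both partners of UF_Ppr_AF_112102. Several of the 27 belonged to the member ranked 73, so the partners are not independent and these values are not per member.

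By name, the lower members held more single sequences and more probes with the ending ms than the higher members. Single sequences made up 17 of 55 lower members (30.9%) and 4 of 45 higher members (8.89%), beside 16.2% of tested probes. Probes with the ending ms numbered 8 of 55 (14.5%) and 0 of 45, beside 2.60%. On the array surface the members ran over rows 1 to 192 and columns 2 to 81, with a median row of 97.5 and a median column of 40, close to the 97 and 41 of all tested probes. Dim regions were looked for as blocks of spots whose mean lay over 0.5 log2 units below the median array, and 2 arrays held such blocks. On 287 ng/L replicate 36 it took 10 of 96 blocks, with 16 members, or 16% of them, beside 10.3% of tested probes, and 1 member lacked a deposited value on that array. On 1006 ng/L replicate 42 it took 8 blocks, with 13 members beside 8.20% of tested probes. Lower members made up 12 of the 16 and 9 of the 13. Without both arrays 40 members still met the rule, and the median differences in order of dose were 1.18, 1.17 and 1.34.

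The membership itself rested on single arrays. When 1 array was left out, between 50 and 98 of the 100 members still met the rule, with a median of 65.5. Without a control array 83, 91, 98, 97 and 84 members stayed, for replicates 3 to 7. Without an exposed array 50 to 68 stayed, the fewest without 29 ng/L replicate 25 (50), 1006 ng/L replicate 42 (54), 1006 ng/L replicate 41 (56) and 29 ng/L replicate 26 (58). The count also moved by over 1.5 times without 29 ng/L replicates 22 (64), 23 (65) and 24 (66), 287 ng/L replicates 35 (63) and 36 (61), and 1006 ng/L replicates 44 (64) and 46 (60). Leaving out a control moves all 3 differences of a probe by the same amount, so their closeness cannot change. Leaving out an exposed array moves only 1 of them and can break the limit on closeness. The gap between the counts for controls and for exposed arrays therefore follows in large part from the rule. It does not show on which group the membership rests more. In all 20 cases, 16 members met the rule every time, 7 of them well above background on all 20 arrays. UF_Ppr_AF_116169 met it in all 20 cases, UF_Ppr_AF_101693 in 14, UF_Ppr_AF_116967 in 10 and UF_Ppr_AF_112102 in 9. The direction held for at least 98 members at all 3 doses in every case. The arrays that remained had also chosen the members, so this follows in large part from the choice.

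**Figure D4:**
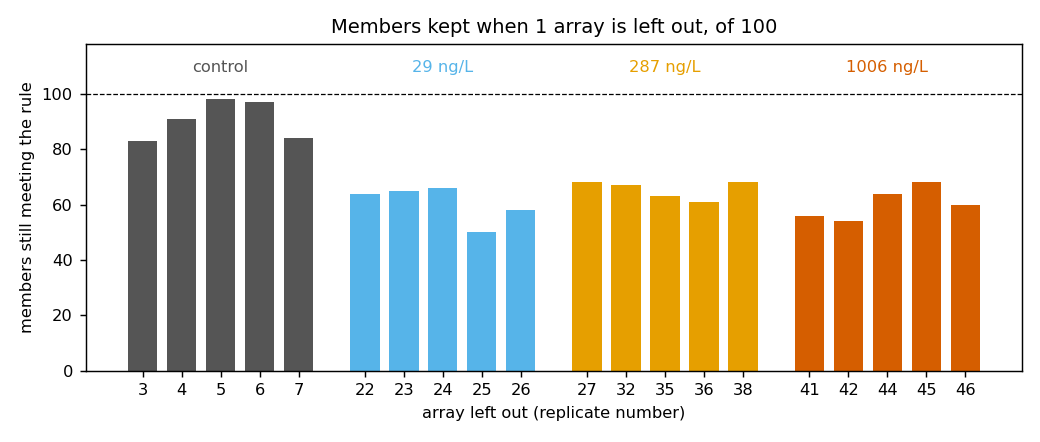
Number of the 100 members that still met the rule (vertical axis) when 1 array was left out (horizontal axis, by replicate number; colours are dose groups; the dashed line is 100). Leaving out a control kept 83 to 98 members and leaving out an exposed array kept 50 to 68. A control moves all differences of a probe alike, so only the loss of an exposed array can break their closeness. The gap between controls and exposed arrays therefore follows in large part from the rule.

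Other normalizations of the scanner values kept the direction of 99 or 100 members. With scanner intensities normalized by cyclic loess all 100 members kept their direction at all 3 doses, with median differences of 1.18, 1.16 and 1.15 log2 units, and 76 met the rule. With scaling to the 75th percentile all 100 kept it and 61 met the rule. With normexp background correction 99 kept it and 41 met the rule, and the median differences were 0.56, 0.54 and 0.58. With group means in place of medians 44 members met the rule and 95 kept their direction at all 3 doses. The same arrays chose the members, each with differences of at least 0.78, so a kept direction follows in large part from the choice.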

How the data were processed

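Liver RNA of female fathead minnows was measured on 20 one-colour arrays, grouped by the dose label, with replicate numbers from the titles. The authors deposited 1 table of log2 values, called loess normalized in its column names. The sources used here do not give its loess settings. Each of its 20 columns correlated best with its own array (r of at least 0.992 to log2 processed intensity), so higher means brighter. The column medians lie between 5.39 and 5.69, so probes were not centred, and any further centring of the arrays is unknown. No value was given for 714 probes on 287 ng/L replicate 36, which were skipped. A further column belongs to no sample (1 in all) and was left out. Per the file headers, the deposited scanner intensity values were made with Agilent Feature Extraction 10.7.1.1, which background-subtracts and detrends but does not scale between arrays.

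The members, their ranks and the values per array come from the deposited table. For the fit, 536 control spots were left out, 240 non-uniform spots were set to missing, and log2 processed intensity was normalized by cyclic loess in R 4.3.3 with limma 3.58.1. One model with a coefficient per group was fitted to all 20 arrays, two-sided, with Benjamini-Hochberg adjustment over 10867 probes. Normexp used median spot and background intensity with an offset of 50, in place of the planned mean signal, and then quantile normalization. Slides and scan sessions were read from the scanner files. The rule and the fit were also run on simulated data with planted changes. That noise was independent between arrays and probes, with no slide or array structure. The members and the settings were chosen with earlier results of these data known. Identifiers printed are, in each direction, the first member by size and the first other one well above background on all arrays. No gene list could be applied, as no probe has a gene name. The number of arrays limits the precision.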

Additional observations from a re-analysis of the deposited data

Results flagged for a closer look

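Dixon's ratio was computed in 32 sets of 5 arrays, which share arrays, and exceeded 0.71 in 5 of them. Chance does so in about 5% of sets that no choice has shaped. The members and UF_Ppr_AF_116169 were picked on these arrays, and the members' shift is taken from the control median. That rate need not hold for them. For the members' median shift the array far from its group was control replicate 6, at 0.91, where the remaining controls spanned -0.11 to 0.06. UF_Ppr_AF_116169 had such an array at every dose. At 29 ng/L replicate 22 it had a log2 signal of 13.01, where its neighbours spanned 10.37 to 10.81. Replicate 38 of the middle dose stood at 6.17, below a span of 9.91 to 10.95, and replicate 44 of the highest dose at 5.74, below 10.40 to 11.58. In overall brightness, replicate 45 of the highest dose had a 75th percentile of 684 intensity units, with 246 to 368 for the rest of its group.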

How the results depend on the processing

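Over all tested probes the rule was met by 419, by 326 to 534 when 1 array was left out, by 205 among probes well above background on all 20 arrays, by 270 with differences within 0.3, by 160 with each at least 0.75, by 176 with normexp and by 860 on slide 4 alone. With 29 or 287 ng/L arrays in the place of the controls the counts were 269 and 184. Of the 100 members, 61 met it with 75th percentile scaling, 41 with normexp, 44 with group means, 51 within 0.3, 7 on slide 3 alone, 15 on slide 4 alone, 35 in scan session 1 alone, 40 without both arrays that have a dim region (287 ng/L replicate 36 and 1006 ng/L replicate 42) and 50 to 98 without 1 array. The 40 members well above background on all arrays met it by construction of that filter. Narrower limits admit fewer probes by construction. The 100 members were picked under the main setting, so another setting can only keep or lose them. The cause of the other changes was not tested.

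The members' median difference moved by more than 1 SD between arrays with normexp (0.56, 0.54 and 0.58 in order of dose), with group means at 287 ng/L (0.90), on slide 3 at 1006 ng/L (1.61) and on slide 4 at 287 and 1006 ng/L (0.95 and 0.81). The offset of 50 shrinks differences of dim probes by construction. Without 1 array it ran from 0.91 to 1.31 at 29 ng/L, from 0.95 to 1.25 at 287 ng/L and from 0.96 to 1.34 at 1006 ng/L. The values at 287 ng/L without control replicate 3 (0.97) and without control replicate 7 (0.95) were also more than 1 SD away. At 29 and 1006 ng/L the values were 0.91 and 0.96 without replicate 3, and 0.92 and 0.97 without replicate 7. The SD between arrays was 0.35, 0.19 and 0.30 in order of dose. The mark at 287 ng/L goes with its smaller SD and shows no sensitivity particular to that dose. Members called by limma numbered 0 at 29 and 287 ng/L in all settings run, and 0 to 1 at 1006 ng/L without 1 array, being 1 when the array left out was 29 ng/L replicate 26 or replicate 42 at 1006 ng/L. At 1006 ng/L 1 member was called with normexp and 1 by the ordinary linear model. Over all tested probes the 22 calls at 1006 ng/L became 1 to 69 without 1 array, 14 with 75th percentile scaling, 48 with normexp and 1 with slide as a fixed block. With slide as a random block there were 22, and with scan session as a fixed block 25. No paired analysis was possible because the groups share no replicate numbers. Signal over background limits what the 60 members not well above it on every array can show.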
